A study of Mus musculus with 14 samples.

Results

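Ly6C-high blood monocytes that have recently entered a tissue carry a characteristic set of transcripts, and 9 genes of this set were followed here in macrophages sorted from the large intestine: LY6C2, CHIL3, PLAC8, VCAN, FN1, F10, THBS1, CD177 and TREM1. The genes were chosen by name as markers of monocytes and of macrophage precursors, with earlier results of these data known although no measured value enters the rule, and their rows were taken from the table of STAR read counts, which lists 24982 genes. All 9 were found in that table, and all 9 passed the filter on low counts that left 13136 genes for testing. Each library came from macrophages of the colonic and cecal lamina propria of 1 mouse on the C57BL/6 background. The sort kept live CD45+ CD64+ CD11b+ MHCII+ cells and removed cells with Ly6G, CD103 or Ly6C on their surface. All mice were 5 weeks old and carried Cdcs1, a locus that makes mice lacking a cytokine prone to colitis. WT mice carried Cdcs1 with no knockout, IL10RAKO mice were also Il10ra -/-, CCR2KO mice were also Ccr2 -/- (the B6.129S4-Ccr2tm1Ifc allele), and DKO mice were Il10ra -/- and Ccr2 -/-. Both knockouts were constitutive, so each cell of these mice lacked the receptor and not the macrophages alone. The comparisons used 4 WT, 4 IL10RAKO and 4 DKO mice, while another WT library (WT mouse 11) and the only CCR2KO library (mouse 6) are given as values. The mouse numbers are those of the sample labels, which give neither sex nor batch for a library.

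In the gut, Ly6C-high monocytes leave the blood and pass through stages in which Ly6C is lost and MHCII is gained before they become resident macrophages. CCR2, the receptor for the chemokine CCL2, is needed for these monocytes to leave the bone marrow in normal numbers. The IL-10 receptor carries the signal by which IL-10 restrains inflammatory genes in macrophages through STAT3. The 9 markers have different roles. LY6C2 encodes part of the Ly6C antigen of the sort, PLAC8 a small cysteine-rich protein, and CHIL3 (Ym1) a secreted chitinase-like lectin. F10 encodes coagulation factor X, and TREM1 and CD177 encode surface proteins of monocytes and neutrophils. THBS1 (thrombospondin 1), FN1 (fibronectin) and VCAN (the proteoglycan versican) encode secreted proteins of the extracellular matrix, which fibroblasts also make. The comparison asks how much of this monocyte profile was present in cells without surface Ly6C, with and without the IL-10 receptor and CCR2.

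The targeted genes followed the labels. IL10RA was at 284 CPM in WT (mean, n = 4), at 7.41 CPM in IL10RAKO and at 5.31 CPM in DKO, and CCR2 was at 593, 476 and 5.67 CPM in the same order. CPM gives the reads of a gene relative to the depth of its library after TMM scaling, so that libraries can be compared. The 12 libraries of the comparisons held 13085287 to 21216468 counted reads, so that 3 reads, taken as the least that the depth can show, came to 0.124 to 0.211 CPM. Reads carried no molecular identifiers, and this floor covers counting error only. WT mouse 11 had 12153000 reads on 11670 genes, against 13485 to 15450 genes in the other 12, and the study's own normalized table omits it. Its summed level of 6 epithelial markers was 2859 CPM, against 50.2 to 1029 CPM in the other WT mice. Of all 13136 genes, 15.8% passed between IL10RAKO and WT at an adjusted p of 0.05 (edgeR, 8.7% higher and 7.1% lower), and 18.5% passed between DKO and WT (9.23% higher and 9.22% lower). Scaling to library totals without TMM moved the median log2 fold change of all genes from -0.07 to -0.38 and from -0.06 to -0.32, and the share of called genes that were higher from 55.1% to 23.8% and from 50% to 25.9%, in the same order. Under both scalings, and with RLE size factors, every called marker and every called gene of the lists named below kept its direction. Some calls were nevertheless lost or gained with library totals. Between DKO and WT, the mature macrophage list went from 1 higher and 8 lower to 0 higher and 11 lower. The Ly6 family and TREM lists each went from 4 to 3 higher. The platelet list and the T and NK cell list each went from 1 to 0 higher.

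Of the 9 markers, 5 were higher in IL10RAKO than in WT macrophages and none was lower, against the 8.7% of all genes that were higher. The same 5 genes, LY6C2, PLAC8, F10, THBS1 and TREM1, were higher in DKO than in WT, against 9.23% of all genes. The call of THBS1 in DKO was lost in 9 of 21 alternative analyses, as described below. The median log2 fold change of the 9 markers was 1.77 in IL10RAKO and 1.07 in DKO, beside -0.07 and -0.06 over all genes tested. Between DKO and IL10RAKO, 0 of the 9 passed with edgeR, at a background of 0.0457% (6 of 13136 genes, with 388 at an unadjusted p under 0.05), and 0 of the 9 passed with DESeq2. No marker reached an unadjusted p under 0.05 in that comparison with edgeR. Both comparisons with WT share the same 4 WT mice, so they are not independent of each other. In bulk samples such as these, fewer cells of a type and less RNA per cell cannot be told apart. CHIL3, VCAN and CD177 did not pass against WT in either genotype, and neither did FN1.

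**Figure D1:**
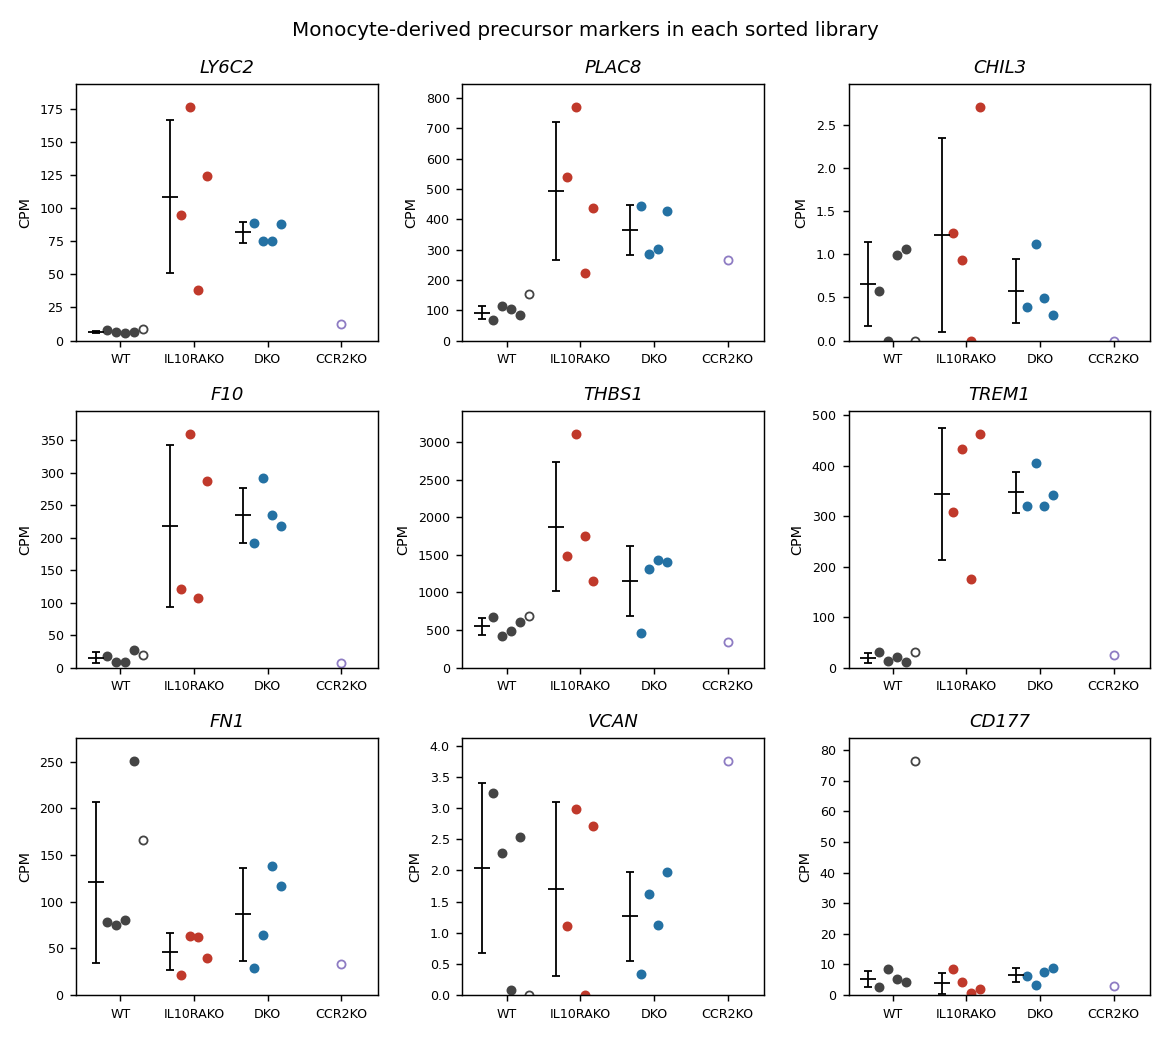
Level of each of the 9 markers in CPM (linear axes) in every library, with 1 point per mouse, open circles for the libraries outside the fit (WT mouse 11 and CCR2KO mouse 6), and a bar for the mean ± SD of the 4 mice of the fit. LY6C2, PLAC8, F10 and TREM1 of all 8 Il10ra -/- mice lie above all WT mice, whereas CHIL3, VCAN and CD177 overlap between genotypes.

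LY6C2 lies on mouse chromosome 15 (GRCm38, 75108158 to 75111970, minus strand) among other genes of the Ly6 family. Its level was 7.64, 6.45, 5.80 and 6.13 CPM in WT mice 4, 5, 10 and 13. In IL10RAKO mice 1, 2, 7 and 8 it was 95.1, 177, 38.4 and 125 CPM. In DKO mice 3, 9, 12 and 14 it was 89.0, 75.3, 74.9 and 87.8 CPM. Every Il10ra -/- mouse thus lay above every WT mouse, although all cells had passed a gate that removed surface Ly6C. LY6C2 was 16.7-fold higher in IL10RAKO than in WT (log2 fold change 4.06, SE 0.36, adjusted p = 4.51e-06) and 12.6-fold higher in DKO (log2 fold change 3.65, SE 0.36, adjusted p = 8.97e-06, both edgeR). DKO and IL10RAKO differed by a log2 fold change of -0.41, with a 95% interval of -1.09 to 0.27. The IL10RAKO mice spread over 4.60-fold from mouse 7 to mouse 2, whereas the DKO mice spread over 1.19-fold and the WT mice over 1.32-fold. Per kilobase of exon, LY6C2 stood above 35.3% of tested genes in WT, 90.0% in IL10RAKO and 87.2% in DKO.

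LY6C1, the neighbouring gene, encodes a nearly identical protein that the same antibodies against Ly6C bind and that endothelial cells also express. The longest coding transcripts of LY6C2 and LY6C1 were identical at 802 of 822 aligned bases (97.6%), and 15.8% of the 100-base windows of LY6C2 also occur in LY6C1, so a fragment lying wholly within such a window could come from either gene. How multiply aligned reads were counted is not given in the sources used here. LY6C1 nevertheless differed in the other direction from LY6C2. It was at 11.1, 8.56, 42.6 and 41.2 CPM in WT mice 4, 5, 10 and 13, between 4.15 and 8.59 CPM in IL10RAKO and between 4.78 and 9.84 CPM in DKO. LY6C1 was 4.54-fold lower in IL10RAKO than in WT (log2 fold change -2.18, SE 0.49, adjusted p = 0.00755) and 3.88-fold lower in DKO (log2 fold change -1.96, SE 0.49, adjusted p = 0.0121), although the ranges overlapped in both. WT mice 10 and 13, with the highest LY6C1, also had the highest summed level of 6 endothelial markers (239 and 205 CPM, against 120 and 84.5 CPM in WT mice 4 and 5), and the part of these markers in the result was not tested. Of the reads on both genes, LY6C2 took 12.0% to 43.0% in WT mice, 90.2% to 95.6% in IL10RAKO mice and 89.9% to 94.0% in DKO mice. With both genes summed, the log2 fold change against WT was 1.82 in IL10RAKO (adjusted p = 0.009) and 1.45 in DKO (adjusted p = 0.0269), so the gene pair was still higher in the knockouts, by less than LY6C2 alone.

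**Figure D2:**
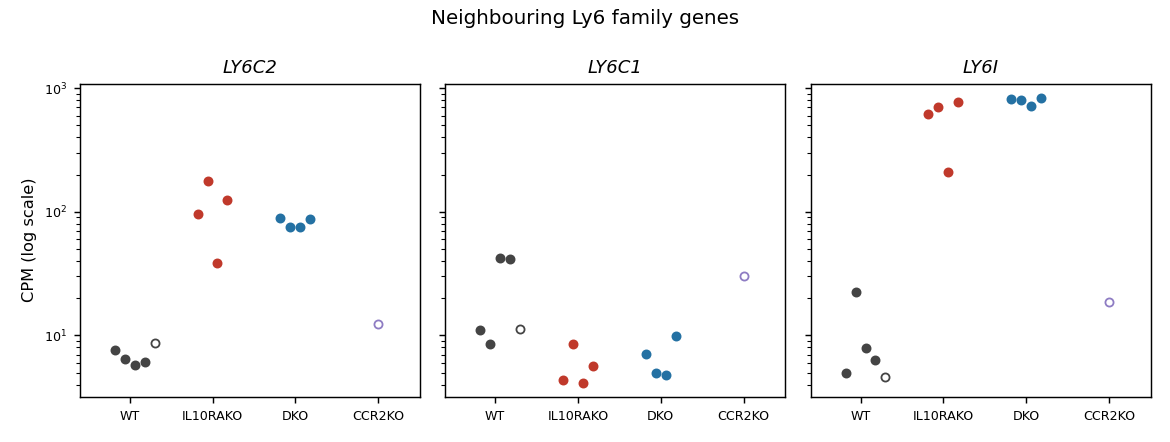
CPM on a shared log axis of LY6C2 and of its family neighbours LY6C1 and LY6I in every library, with 1 point per mouse and open circles for WT mouse 11 and CCR2KO mouse 6. LY6C2 and LY6I are higher in all 8 Il10ra -/- mice than in all WT mice, while LY6C1 reaches its highest levels in WT mice 10 and 13.

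The Ly6 genes around LY6C2 did not all follow it. Of 9 listed family members, 7 were tested, and 4 were higher and 1 lower in each knockout genotype than in WT, LY6C2 included. LY6I, a close relative that shares 0% of its 100-base windows with other genes, rose with LY6C2. Its level rose from 10.4 CPM in WT (mean, range 4.97 to 22.3) to 577 CPM (IL10RAKO, adjusted p = 4.94e-06, edgeR) and 794 CPM (DKO, adjusted p = 2.7e-06). LY6A (Sca-1) rose from 123 CPM to 728 and 689 CPM (adjusted p = 7.94e-06 and 9.61e-06). LY6G, which marks neutrophils and was gated out, was not tested. It had 0 to 1 read in the 4 WT libraries and 0 to 12 reads in the IL10RAKO and DKO libraries.

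RefSeq (GRCm38.p6) supplied promoter sequences for 7 of the 9 markers, with none for FN1 and THBS1. The 250 bases upstream of the RefSeq transcription start are printed 5′ to 3′ on the strand of the gene. They are given for the risen markers LY6C2, PLAC8, F10 and TREM1, with LY6C1 for comparison with its neighbour. Gene positions in the text come from GENCODE, where PLAC8 reaches base 100572245. The PLAC8 window begins at 100572206 and so overlaps the gene as given there. Its PU.1 match at 15 bases before the RefSeq start lies in this overlap. Capitals mark matches, on either strand, to 5 motifs: TTCNNNGAA (the STAT site), GAAANNGAA (an interferon response site), GAGGAA (a core bound by PU.1), TTNNGNAA (a C/EBP site) and the NF-kappaB consensus.
LY6C2 (chr15:75111972-75112221, minus strand): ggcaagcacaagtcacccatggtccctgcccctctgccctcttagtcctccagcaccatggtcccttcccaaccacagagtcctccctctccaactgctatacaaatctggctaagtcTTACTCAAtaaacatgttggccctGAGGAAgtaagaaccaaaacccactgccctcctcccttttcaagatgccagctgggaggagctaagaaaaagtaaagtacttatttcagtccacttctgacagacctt
LY6C1 (chr15:75048838-75049087, minus strand): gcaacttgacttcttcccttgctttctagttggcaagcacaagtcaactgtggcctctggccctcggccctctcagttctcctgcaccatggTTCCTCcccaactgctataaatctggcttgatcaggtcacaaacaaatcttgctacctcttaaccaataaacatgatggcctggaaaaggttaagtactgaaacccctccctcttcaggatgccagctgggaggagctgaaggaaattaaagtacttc
PLAC8 (chr5:100572206-100572455, minus strand): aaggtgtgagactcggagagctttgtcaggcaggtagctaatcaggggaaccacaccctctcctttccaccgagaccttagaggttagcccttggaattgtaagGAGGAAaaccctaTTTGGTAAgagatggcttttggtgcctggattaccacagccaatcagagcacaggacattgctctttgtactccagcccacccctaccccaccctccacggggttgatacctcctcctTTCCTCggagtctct
F10 (chr8:13037058-13037307, plus strand): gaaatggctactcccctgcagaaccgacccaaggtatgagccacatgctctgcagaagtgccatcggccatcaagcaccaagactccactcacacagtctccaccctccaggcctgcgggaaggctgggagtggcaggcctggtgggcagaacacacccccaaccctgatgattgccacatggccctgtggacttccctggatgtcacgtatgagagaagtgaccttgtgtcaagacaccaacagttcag
TREM1 (chr17:48232489-48232738, plus strand): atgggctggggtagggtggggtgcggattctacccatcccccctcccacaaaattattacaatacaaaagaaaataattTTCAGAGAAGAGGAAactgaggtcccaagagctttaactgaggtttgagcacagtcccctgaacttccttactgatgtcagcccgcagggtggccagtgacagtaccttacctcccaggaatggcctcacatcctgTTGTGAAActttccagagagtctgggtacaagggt
TREM1 held a STAT match and a PU.1 match side by side, at 171 and 162 bases before the start, and a C/EBP match at 35 bases before it. LY6C2 held 1 C/EBP match and 1 PU.1 match, LY6C1 held 1 PU.1 match at another place and no C/EBP match, PLAC8 held 2 PU.1 matches and 1 C/EBP match, and F10 held none of the 5. None of the 5 printed windows held an NF-kappaB or interferon response match. The windows of CHIL3, VCAN and CD177, which did not pass against WT, were searched as well and are not printed. CHIL3 held 1 STAT match, 1 interferon response match and 3 C/EBP matches. CD177 held 1 PU.1 match and 1 C/EBP match, and VCAN held none of the 5. Matches thus occurred both in markers that rose and in markers that did not pass. Among 27025 promoters of the same length, a STAT match occurred in 7.18%, an interferon response match in 7.16%, a PU.1 match in 23.1%, a C/EBP match in 36.9% and an NF-kappaB match in 4.78%. The upstream windows of LY6C2 and LY6C1 were identical at 164 of 216 aligned bases (75.9%). A match of letters is a description of the sequence and was not tested for binding.

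PLAC8 is on chromosome 5 (100553725 to 100572245, minus strand). It was at 67.8, 113, 104 and 84.5 CPM in WT mice 4, 5, 10 and 13. In IL10RAKO mice 1, 2, 7 and 8 it was at 539, 771, 224 and 437 CPM. In DKO mice 3, 9, 12 and 14 it was at 445, 286, 303 and 429 CPM. The Il10ra -/- mice all lay above the WT mice, and IL10RAKO mouse 7 was again the lowest of these Il10ra -/- mice. PLAC8 was 5.33-fold higher in IL10RAKO (log2 fold change 2.41, SE 0.32, adjusted p = 0.000131) and 3.96-fold higher in DKO than in WT (log2 fold change 1.98, SE 0.31, adjusted p = 0.00048, both edgeR). DKO and IL10RAKO differed by a log2 fold change of -0.43, with a 95% interval of -1.07 to 0.21. Unlike LY6C2, PLAC8 was already abundant in WT macrophages, where its level per kilobase stood above 94.8% of tested genes. In the CCR2KO library it was at 267 CPM, above all 5 WT libraries, which is a single mouse without a test.

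F10 is on chromosome 8 (13037308 to 13056676, plus strand). Its level was 17.3, 8.91, 8.37 and 27.4 CPM in WT mice 4, 5, 10 and 13. It was 120, 359, 107 and 287 CPM in IL10RAKO mice 1, 2, 7 and 8. It was 192, 292, 235 and 218 CPM in DKO mice 3, 9, 12 and 14. Again no Il10ra -/- mouse overlapped with a WT mouse. The IL10RAKO mice split into a lower pair, mice 1 and 7, and a higher pair, mice 2 and 8. F10 was 14.1-fold higher in IL10RAKO (log2 fold change 3.82, SE 0.46, adjusted p = 6.63e-05) and 15.2-fold higher in DKO than in WT (log2 fold change 3.92, SE 0.46, adjusted p = 4.44e-05, both edgeR). DKO and IL10RAKO differed by a log2 fold change of 0.10, with a 95% interval of -0.77 to 0.97. CCR2KO mouse 6 had 6.96 CPM of F10, below every WT library.

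The genes that work with factor X in coagulation moved in both directions. Of 15 listed genes, F10 included, 5 were higher and 6 lower in IL10RAKO than in WT, and 5 were higher and 6 lower in DKO. PROCR, the endothelial protein C receptor, rose from a WT mean of 18.5 CPM to 490 CPM (IL10RAKO, adjusted p = 7.29e-06) and 628 CPM (DKO, adjusted p = 3.89e-06). F3, tissue factor, which with factor VII activates factor X, rose from 5.97 CPM to 86.4 CPM (14.5-fold, adjusted p = 6.68e-06) and 78.3 CPM (13.1-fold, adjusted p = 8.17e-06). F13A1, the fibrin-crosslinking subunit of factor XIII and itself a marker of classical monocytes, fell from 344 CPM to 18.7 CPM (18.4-fold, adjusted p = 1.79e-07) and 10.1 CPM (34.1-fold, adjusted p = 1.19e-08). F10 and F13A1, both listed here as monocyte genes, thus lay on opposite sides of the 4 WT mice in all 8 knockout mice. F13A1 was abundant in WT, above 94.1% of tested genes per kilobase. Its fall was shared by CD163 and MRC1, listed below as genes of mature macrophages.

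TREM1 is on chromosome 17 (48232768 to 48246924, plus strand) and encodes a receptor that amplifies inflammatory signals through TYROBP (DAP12). It was at 31.99, 14.1, 21.8 and 10.7 CPM in WT mice 4, 5, 10 and 13. It was at 308, 432, 175 and 462 CPM in IL10RAKO mice 1, 2, 7 and 8. It was at 321, 406, 319 and 342 CPM in DKO mice 3, 9, 12 and 14. The lowest Il10ra -/- mouse, IL10RAKO mouse 7, stood well above the highest WT mouse. TREM1 was 17.5-fold higher in IL10RAKO (log2 fold change 4.13, SE 0.36, adjusted p = 4.31e-06) and 17.6-fold higher in DKO than in WT (log2 fold change 4.14, SE 0.36, adjusted p = 3.55e-06, both edgeR), the largest fold changes among the 9 markers. DKO and IL10RAKO differed by a log2 fold change of 0.01, with a 95% interval of -0.67 to 0.70. Of 10 listed genes of the TREM family and its adaptors, TREM1 included, 9 were tested, and 3 were higher in IL10RAKO and 4 in DKO, with none lower. TREML4 rose from a WT mean of 32.8 CPM to 92.1 CPM (IL10RAKO, adjusted p = 0.000879) and 79.4 CPM (DKO, adjusted p = 0.00225), and TREM3 from 3.47 CPM to 12.6 CPM (adjusted p = 0.00441) and 12.5 CPM (adjusted p = 0.00413).

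THBS1 is on chromosome 2 (118111876 to 118127133, plus strand). It was at 674, 425, 488 and 604 CPM in WT mice 4, 5, 10 and 13. It was at 1485, 3105, 1753 and 1149 CPM in IL10RAKO mice 1, 2, 7 and 8. It was at 464, 1316, 1425 and 1399 CPM in DKO mice 3, 9, 12 and 14. All IL10RAKO mice lay above WT, whereas DKO mouse 3 fell inside the WT range and the other 3 DKO mice above it. THBS1 was 3.42-fold higher in IL10RAKO (log2 fold change 1.77, SE 0.35, adjusted p = 0.00318) and 2.10-fold higher in DKO than in WT (log2 fold change 1.07, SE 0.35, adjusted p = 0.044, both edgeR). The call in DKO was lost when any 1 of 7 mice was left out (WT mouse 5, 10 or 13, IL10RAKO mouse 7, or DKO mouse 9, 12 or 14), with log2 fold changes of 0.96 to 1.12 and adjusted p-values of 0.0517 to 0.109. It was also lost with library totals (adjusted p = 0.101) and with WT mouse 11 added (adjusted p = 0.0555). Without DKO mouse 3, the log2 fold change was 1.34 (adjusted p = 0.00601). DKO and IL10RAKO differed by a log2 fold change of -0.70, with a 95% interval of -1.44 to 0.03. Of the 10 listed receptors for thrombospondin and fibronectin, SDC4 was higher and CD36, a receptor of thrombospondin 1, was lower than WT in both knockout genotypes, and the other 8 did not pass. With library totals, 0 were higher and 2 lower in DKO, so the call of SDC4 there was lost. CD36 fell from a WT mean of 166 CPM to 47.8 CPM (IL10RAKO, adjusted p = 0.00501) and 46.6 CPM (DKO, adjusted p = 0.00405).

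**Figure D3:**
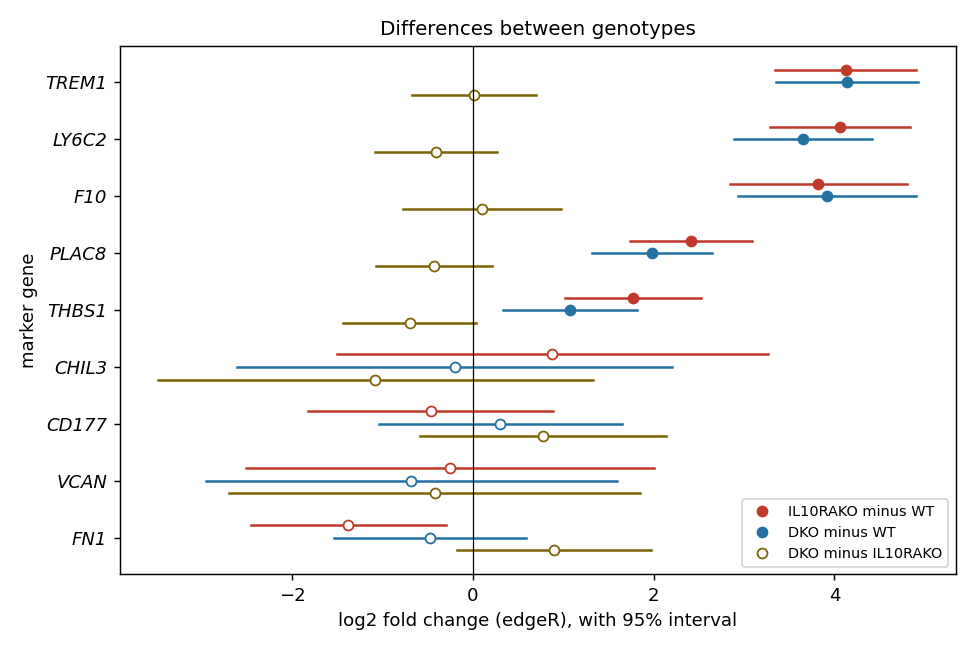
Log2 fold change (edgeR) of each marker in 3 comparisons with its 95% interval, filled circles for an adjusted p under 0.05 and open circles otherwise. TREM1, LY6C2, F10, PLAC8 and THBS1 lie to the right of 0 against WT in both knockout genotypes, while all intervals between DKO and IL10RAKO include 0.

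FN1 is on chromosome 1 (71585520 to 71653200, minus strand), where Apol7d, on the opposite strand and also in the count table, overlaps it. Whether the counting used strand is not given in the sources used here. FN1 was at 78.2, 75.1, 80.0 and 250 CPM in WT mice 4, 5, 10 and 13. It was at 21.8, 62.6, 61.8 and 39.4 CPM in IL10RAKO mice 1, 2, 7 and 8. It was at 28.3, 63.7, 138 and 116 CPM in DKO mice 3, 9, 12 and 14. All IL10RAKO mice lay below all WT mice, but the DKO mice spread on both sides of the WT mice 4, 5 and 10. The log2 fold change was -1.38 in IL10RAKO (SE 0.50, adjusted p = 0.0824) and -0.48 in DKO (SE 0.50, adjusted p = 0.549, both edgeR), so neither passed. The first value rested largely on WT mouse 13 and was -0.74 (adjusted p = 0.322) without it. The same difference passed narrowly with library totals (log2 fold change -1.69, adjusted p = 0.0356) and without DKO mouse 3 (log2 fold change -1.37, adjusted p = 0.0499). DKO and IL10RAKO differed by a log2 fold change of 0.90, with a 95% interval of -0.17 to 1.97.

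CHIL3 is on chromosome 3 (106147554 to 106167564, minus strand) and had 0 to 41 reads per library. In WT mice 4, 5, 10 and 13 it had 12, 0, 24 and 16 reads. In IL10RAKO mice 1, 2, 7 and 8 it had 18, 15, 0 and 41 reads. In DKO mice 3, 9, 12 and 14 it had 7, 18, 7 and 6 reads. The 3 groups overlapped at this depth. The log2 fold change was 0.88 in IL10RAKO (95% interval -1.504 to 3.26) and -0.20 in DKO (95% interval -2.61 to 2.20) against WT, and -1.08 between DKO and IL10RAKO (95% interval -3.49 to 1.33), so a severalfold change in either direction was not detectable. Of the 100-base windows of CHIL3, 5.42% also occur in CHIL4 or the gene Gm6522, and CHIL4 had 0 reads in all 14 libraries. Per kilobase, CHIL3 stood above 8.29% of tested genes in WT, 21.3% in IL10RAKO and 12.9% in DKO.

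VCAN is on chromosome 13 (89655312 to 89742509, minus strand) and had 0 to 68 reads per library. In WT mice 4, 5, 10 and 13 it had 68, 39, 2 and 38 reads. In IL10RAKO mice 1, 2, 7 and 8 it had 16, 48, 0 and 41 reads. In DKO mice 3, 9, 12 and 14 it had 6, 26, 16 and 40 reads. Low and high libraries occurred in every genotype. The log2 fold change against WT was -0.26 in IL10RAKO (95% interval -2.51 to 2.00) and -0.68 in DKO (95% interval -2.95 to 1.59), and -0.42 between DKO and IL10RAKO (95% interval -2.70 to 1.85). Per kilobase, VCAN had the lowest level of the 9 markers in every genotype, above 2.03% of tested genes in WT, 4.55% in IL10RAKO and 3.13% in DKO.

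CD177, a surface glycoprotein best known from neutrophils, is on chromosome 7 (24743983 to 24760311, minus strand). It was at 2.63, 8.62, 5.22 and 4.26 CPM in WT mice 4, 5, 10 and 13. It was at 8.42, 4.11, 0.455 and 2.05 CPM in IL10RAKO mice 1, 2, 7 and 8. It was at 6.18, 3.30, 7.38 and 8.70 CPM in DKO mice 3, 9, 12 and 14. The groups overlapped, and IL10RAKO mouse 7, with 9 reads, was the lowest of the 12. The log2 fold change against WT was -0.47 in IL10RAKO (95% interval -1.83 to 0.89) and 0.30 in DKO (95% interval -1.04 to 1.65), and 0.77 between DKO and IL10RAKO (95% interval -0.59 to 2.13). WT mouse 11 had 76.4 CPM (1042 reads), and with it in the fit the log2 fold changes against WT were -2.36 and -1.59. The epithelial markers were also highest in that library, and their part in this value was not tested.

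The risen markers differed in how far they stood above WT as well as in their starting level. Per kilobase of exon, THBS1 and PLAC8 stood above 96.9% and 94.8% of tested genes in WT, so they were among the abundant transcripts without any knockout. TREM1 and F10 stood above 60.3% and 56.7% in WT, and above 96.7% and 95.3% in IL10RAKO and 96.9% and 95.8% in DKO. In reads, not per length, THBS1 and PLAC8 together made up 69.5% to 84.0% of the summed CPM of the 9 markers in the WT libraries of the comparisons, so that this sum describes those genes more than the others. The sum was 654 to 991 CPM in WT, 2360 to 4914 CPM in IL10RAKO and 1546 to 2604 CPM in DKO. IL10RAKO mouse 7 was the lowest of its genotype for 7 of the 9 markers, and mouse 2 the highest for 6. DKO mouse 3 was the lowest DKO mouse for 4 of the 9, THBS1, FN1, VCAN and F10, and the highest for LY6C2 and PLAC8.

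Other genes of classical monocytes were split. Of 14 listed, 5 were higher and 1 lower in IL10RAKO than in WT, and 5 were higher and 3 lower in DKO, 1 of the latter being the targeted CCR2. With library totals the counts were 3 higher and 3 lower in IL10RAKO and 4 higher and 5 lower in DKO. HP (haptoglobin) rose from a WT mean of 10.6 CPM to 222 CPM (IL10RAKO, 20.8-fold, adjusted p = 7.64e-05) and 205 CPM (DKO, 19.3-fold, adjusted p = 7.11e-05), and F13A1 fell as described above. CCR2 transcript was at 514 to 702 CPM in the WT mice and 361 to 627 CPM in the IL10RAKO mice, whose difference did not pass (adjusted p = 0.328). The median log2 fold change of this list was 0.67 in IL10RAKO and 0.35 in DKO. Of 13 genes of mature intestinal macrophages, none was higher and 5 were lower in IL10RAKO, and 1 was higher and 8 were lower in DKO. CD163, a hemoglobin scavenger receptor, fell from a WT mean of 99.7 CPM to 3.88 CPM (IL10RAKO, adjusted p = 4.81e-05) and 1.499 CPM (DKO, adjusted p = 8.32e-06). MRC1, the mannose receptor, fell from 481 CPM to 113 CPM (adjusted p = 0.00448) and 51.7 CPM (adjusted p = 0.000223). The summed level of these 13 genes was 16168, 10418, 21567 and 25094 CPM in IL10RAKO mice 1, 2, 7 and 8. It was 21802 to 31485 CPM in WT and 10624 to 15066 CPM in DKO. APOE had the highest mean of the list, at 17293, 11560 and 7513 CPM in WT, IL10RAKO and DKO, so the sum describes it more than the other genes. Of 9 tested genes of non-classical monocytes, 3 were higher and 1 lower in each knockout genotype, among them TREML4 and ITGAL (higher) and FABP4 (lower). With library totals, 1 was higher and 1 lower in IL10RAKO, and 2 were higher and 1 lower in DKO.

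The gate was checked with the transcripts of its antigens. PTPRC (CD45) was at 922, 1117 and 1075 CPM in WT, IL10RAKO and DKO, ITGAM (CD11b) at 519, 431 and 565 CPM, and FCGR1 (CD64) at 102, 180 and 125 CPM, each a mean of 4 mice. Of these and the 3 MHCII genes H2-AA, H2-AB1 and H2-EB1, FCGR1 (adjusted p = 0.0304) and H2-AB1 (adjusted p = 0.0285) were higher in IL10RAKO than in WT, neither of them with library totals, and none passed in DKO. ITGAE (CD103), gated out, was at 0 to 9.26 CPM in the 12 libraries.

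Markers of other cell types moved with genotype beside the markers of monocytes. All 6 fibroblast genes were lower in both knockout genotypes, with a summed level of 294 to 577 CPM in WT, 15.0 to 53.7 CPM in IL10RAKO and 16.1 to 67.0 CPM in DKO, and none of them was at 0 throughout. DCN (decorin) was at 65.2, 5.23 and 4.83 CPM in WT, IL10RAKO and DKO. Fibroblasts make FN1, VCAN and THBS1 as well, and the part of fibroblast RNA in their levels was not tested. WT mouse 5 had the highest fibroblast sum (577 CPM) and the lowest FN1 of the 4 WT mice, while WT mouse 13 had 553 CPM and the highest FN1. Of 12 neutrophil genes, 10 were tested, and 6 were higher and 1 lower in IL10RAKO, and 7 were higher and none lower in DKO. Their summed level was 104 to 169 CPM in WT, 161 to 369 CPM in IL10RAKO and 245 to 336 CPM in DKO. CSF3R had the highest mean of the list, at 87.3, 198 and 181 CPM in the same order. The sum thus describes CSF3R more than the other genes. S100A9 had 0 reads in the 4 WT mice, 10 to 655 reads in the IL10RAKO mice and 143 to 293 reads in the DKO mice, and MMP8 rose from 4.15 CPM to 27.3 CPM (adjusted p = 0.00295) and 36.5 CPM (adjusted p = 0.00101). TREM1 and CD177 are also genes of neutrophils, and the part of neutrophil RNA in them was not tested. CD177 did not pass in either genotype, whereas 6 of the 10 tested genes of the neutrophil list were higher in IL10RAKO and 7 in DKO. LY6G, which was not tested, had 0 to 1 read in the 4 WT mice, 0 to 12 in the IL10RAKO mice and 1 to 10 in the DKO mice.

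**Figure D4:**
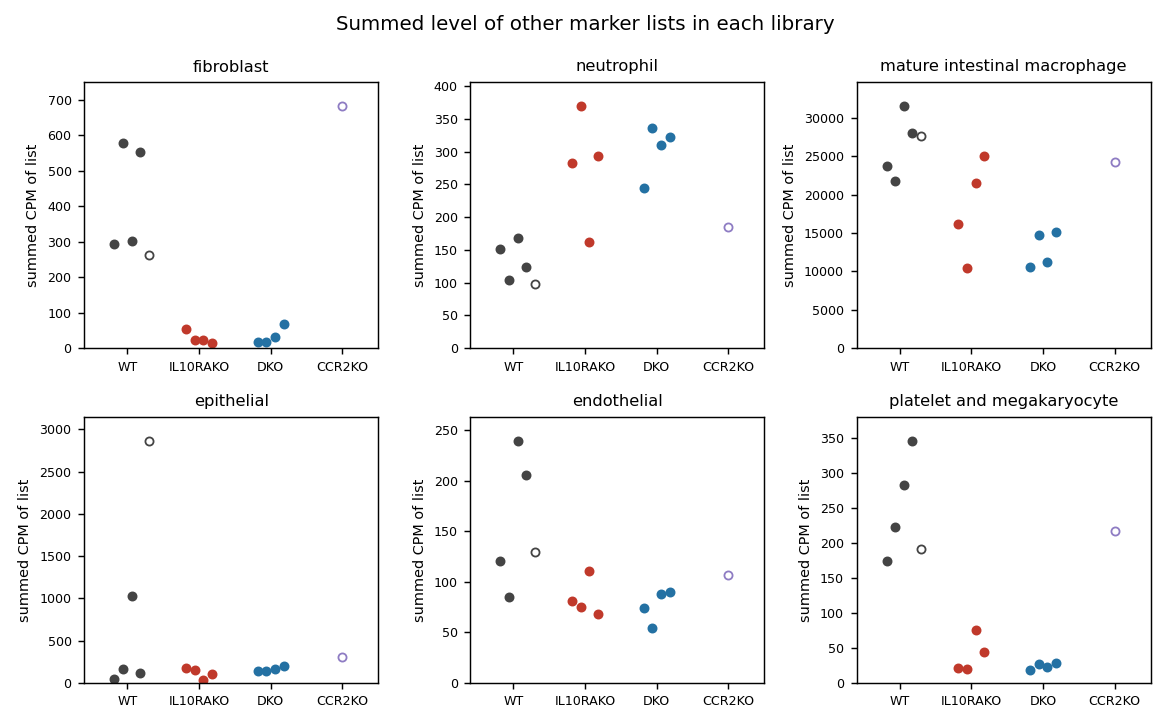
Summed CPM (linear axes) of 6 lists of marker genes of other cell types and of mature macrophages in every library, with 1 point per mouse and open circles for WT mouse 11 and CCR2KO mouse 6. The fibroblast sum is 294 to 577 CPM in the 4 WT mice of the comparisons and at most 67.0 CPM in the knockouts with Il10ra -/-, while the neutrophil sum reaches 369 CPM in IL10RAKO and 336 CPM in DKO.

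Platelet and megakaryocyte genes, relevant to THBS1, which platelets store, summed to 175 to 345 CPM in WT, 19.1 to 74.8 CPM in IL10RAKO and 18.4 to 28.7 CPM in DKO, mostly PF4, which fell from a WT mean of 250 CPM to 35.5 CPM (IL10RAKO, adjusted p = 0.000342, edgeR) and a lower mean still in DKO (adjusted p = 6.09e-05). Of the 3 tested genes of that list, 1 was higher and 1 lower in IL10RAKO, and 1 was higher and 2 lower in DKO. The higher gene was ITGA2B, at means of 0.117, 2.10 and 1.61 CPM in WT, IL10RAKO and DKO. Genes of the list that were not tested had WT means of 0 to 0.749 CPM. The sum therefore describes PF4 more than the other genes, and the part of platelet RNA in THBS1 was not tested. Of 6 endothelial genes, 2 were lower in IL10RAKO and 3 in DKO. Epithelial and B-cell lists of 6 genes each gave no call in either genotype. The list of B and plasma cells was not low, however. It summed to 521 to 1825 CPM in WT, 395 to 1079 CPM in IL10RAKO and 482 to 1879 CPM in DKO. In CCR2KO mouse 6 it summed to 2611 CPM. The part of RNA from these cells in the marker values was not tested. The dendritic cell list (6 genes) gave 2 higher and 1 lower in IL10RAKO and 1 higher and 2 lower in DKO, the T and NK cell list (5 tested) gave none and 1 higher, and the list of eosinophils and mast cells (5 tested) gave 1 higher in each.

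The genes most like each marker across the 12 libraries were listed by the Pearson correlation of log2 CPM, as a description, since the 3 genotypes separate most of these points and the libraries are shared. LY6C2 was most like ARG2 (r = 0.99) and NRG1 (r = 0.99), PLAC8 most like IFI211 (r = 0.97) and CD40 (r = 0.97), and TREM1 most like HIF1A (r = 0.99) and SOD2 (r = 0.99). F10 was most like SLC16A3 (r = 0.98) and TNFAIP2 (r = 0.98), and THBS1 most like TNFRSF1B (r = 0.94) and ETV6 (r = 0.93). After the genotype means were removed, the same pairs gave r = 0.79 to 0.91 over the 12 libraries. These pairs were picked for the highest r in the same libraries, so a high value here follows in part from that choice. FN1 was most like MAST2 (r = 0.96) and BAG6 (r = 0.95). The closest genes of CHIL3, VCAN and CD177, markers with few reads, gave r of 0.84 to 0.89.

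In the single CCR2KO library, with no replicate and no test, LY6C2 was at 12.4 CPM, PLAC8 at 267 CPM and VCAN at 3.75 CPM, each above all 5 WT libraries. THBS1 (336 CPM), F10 (6.96 CPM) and FN1 (33.1 CPM) were below all 5, TREM1 (25.5 CPM) and CD177 (2.86 CPM) were within their range, and CHIL3 had 0 reads. LY6C2, F10 and TREM1 of this library were below every IL10RAKO and DKO library, while PLAC8 lay above IL10RAKO mouse 7.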

How the data were processed

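RNA of sorted macrophages was amplified with SmartSeq v4 and sequenced by the authors as paired-end reads on a NovaSeq, per the labels and the study's methods. The submitters' processing notes name bcl2fastq 2.20, STAR 2.5.1b, edgeR 3.34.0 and the build mm10. The deposited counts are raw whole reads for 24982 genes and 14 libraries. The deposited table of edgeR pseudocounts, a score adjusted by the authors to a common library size, covers 12 libraries and 13338 genes, lists all 9 markers, and served only to identify the 12 libraries of the comparisons. The annotation, strand setting and handling of multiply aligned reads are not given in the sources used here. No per-sample column was set aside (0).

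Counts were fitted in R 4.3.3 with edgeR 4.0.16 (filterByExpr by genotype with a minimum count of 10, TMM, glmQLFit and glmQLFTest) over 3 genotypes of 4 mice each. Benjamini-Hochberg adjustment ran over 13136 genes, with a threshold of 0.05, and intervals are at 95%. The labels do not say whether mice shared a litter or a sort, so p-values measure the spread between these mice. Positions, exon lengths and transcripts come from GENCODE vM21 (GRCm38), which matched 24498 gene names by symbol. Levels per kilobase used the union of exons. The fit was tested on simulated data.

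The 9 markers and the other gene lists were chosen with earlier results of these data known. Text names all 9 markers, up to 3 genes of each other list with the smallest adjusted p-value against WT, the genes of the gate and of the near-identical copies, the targeted genes, and the 2 genes most like each marker by Pearson correlation. CSF3R and APOE are named as the genes with the highest mean CPM of their lists. Alternatives were DESeq2 1.42.0, RLE size factors, library totals, no filter, 10 reads in every library, only the genotypes compared, 13 libraries with WT mouse 11, the edgeR 4 deviance, a log2 fold change of at least 1, summed paralogs and leaving out each mouse.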

Additional observations from a re-analysis of the deposited data

Results flagged for a closer look

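Libraries standing apart from their own genotype were sought on the log2(CPM + 1) scale in 36 sets of mice (9 markers in the WT mice of the fit, all 5 WT mice, IL10RAKO and DKO), where chance flags about 1 in 20, and 2 were found. FN1 in WT mouse 13 (250 CPM) was far above the other 3 WT mice of the fit, and THBS1 in DKO mouse 3 (464 CPM) was far below the other 3 DKO mice. Without WT mouse 13 the FN1 log2 fold change between DKO and WT turned from -0.48 to 0.16, and without DKO mouse 3 that of THBS1 rose from 1.07 to 1.34.

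Libraries outside the comparisons also stood above the WT mice. The CCR2KO library had more LY6C2 (12.4 CPM), PLAC8 (267 CPM) and VCAN (3.75 CPM) than all 5 WT libraries. WT mouse 11 had more LY6C2 (8.65 CPM), PLAC8 (152 CPM), THBS1 (690 CPM) and CD177 (76.4 CPM) than the other 4 WT mice. Each is 1 library, and none of these values was tested.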

How the results depend on the processing

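The numbers of markers called against WT and between the knockouts stayed within 1.5 times their values under the alternatives run: 5 to 6 of 9 between IL10RAKO and WT, 4 to 5 between DKO and WT, and 0 between DKO and IL10RAKO. LY6C2, PLAC8, F10 and TREM1 remained called against WT in both genotypes under all of them, and THBS1 did in IL10RAKO. Of 558 fold changes recomputed, 532 kept direction and side of the threshold, 9 (all THBS1 between DKO and WT) lost the call, 2 (FN1 between IL10RAKO and WT) gained it, and 15, all of differences not called, changed sign. With WT mouse 11 added, the log2 fold change of VCAN between IL10RAKO and WT was 0.061, that of CHIL3 between DKO and WT 0.11 and that of CD177 between DKO and WT -1.59. Leaving out 1 mouse at a time gave -0.67 to 0.16 for VCAN between IL10RAKO and WT, -0.74 to 0.11 for CHIL3 and -0.79 to 0.16 for FN1 between DKO and WT, and -0.11 to 0.45 for F10 and -0.19 to 0.19 for TREM1 between DKO and IL10RAKO. The cause was not tested. A filter of 10 reads in every library left 6 of the 9 markers, without CHIL3, VCAN and CD177, whose low reads limit what the depth can show. No paired analysis was possible because the genotypes hold different mice and the labels give no shared replicate or litter number.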
